A study of Mus musculus with 7 samples.

Results

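Genes that move, bind or sense zinc, iron and copper were examined in sorted mouse mammary cells measured on Affymetrix arrays. Members were found by gene symbol: the zinc transporter families Slc30a and Slc39a, the metallothioneins, and named genes of iron, heme and copper handling. The series matrix held 40 of them among 17096 genes, each read from 1 probe set that the platform annotation gives to a single gene. Where a gene had several such probe sets, the one with the highest mean log2 intensity stood for it. Mt2, a metallothionein, had no listed probe set, and Slc11a2, a divalent metal importer, was listed only on probe sets given to more than 1 gene, so neither was analysed here.

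The comparison was between adult luminal cells, which line the ducts and face the milk, and adult basal cells, the contractile outer layer. Luminal cells were YFP+ cells of K8CREERT2/RosaYFP mice and basal cells were YFP+ cells of K5CREERT2/RosaYFP mice, each taken 8 weeks after tamoxifen, with 2 arrays a group. The label therefore marks cells in which a keratin 8 or keratin 5 promoter was active when tamoxifen was given, together with their progeny. Both adult groups carried the reporter and had received tamoxifen. Layer and Cre line coincide, so the 2 cannot be told apart. The titles of the adult arrays are marked as a reanalysis, and those of the embryonic arrays are not. The sources used here do not state the adult animals' age or how the adult cells were prepared. They also leave unstated whether a group's 2 arrays are separate animals, and any p-value below reflects array-to-array spread, which may be technical. A further 3 arrays held CD49fHi Lgr5Hi cells of Lgr5-IRES-GFP female embryos at embryonic day 14 (2000, 2000 and 813 cells, each a pool of the females of a litter).

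The layer labels were checked first. All 7 measured basal layer markers changed and were higher in basal cells, among them Cdh3 (P-cadherin, -3.01 on the log2 scale, luminal minus basal), Krt14 (-2.54) and Krt5 (-2.75). Of 9 luminal markers 6 were higher in luminal cells, among them Foxa1 (2.71), Elf5 (1.68) and Pgr (1.88), while Krt8 (0.40) and Krt18 (0.68) did not pass. The luminal arrays differed from each other: replicate 2 read higher than replicate 1 for some basal and stromal markers, with Acta2 at 9.29 against 7.97, Mylk at 8.04 against 6.27, Col1a1 at 10.41 against 8.58 and Lyz2 at 6.23 against 3.92, genes picked after their values were seen. Krt14 (9.42 against 9.54) and Trp63 (7.30 against 7.67) did not follow. Results are therefore also given without luminal replicate 2. The basal arrays differed as well: replicate 2 read higher than replicate 1 for some endothelial markers. Among these, picked after their values were seen, were Tie1 (7.53 against 6.45) and Emcn (7.02 against 5.99), while Cldn5 (5.46 against 5.75) and Ramp2 (11.87 against 12.06) went the other way. The embryonic columns stood apart from the adult ones: 12 of the 40 members had exactly equal values in embryonic replicates 1 and 2, against 0 between the replicates of either adult group. They were left out of the fit, and their values are given only as a description.

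Zinc enters the cytosol through the ZIP transporters (Slc39a genes) and leaves it, to the outside or into vesicles, through the ZnT transporters (Slc30a genes). Metallothioneins bind zinc and copper in the cytosol, and the zinc sensor Mtf1 raises their transcription, and that of the exporter Slc30a1, through short metal response elements near the gene start. Iron reaches cells bound to transferrin (Trf) through the transferrin receptor (Tfrc), is stored in ferritin (Fth1) and leaves through ferroportin (Slc40a1), while heme oxygenase 1 (Hmox1) frees iron from heme. The lactating gland passes zinc, iron and copper into milk, and the transporters of luminal cells are best known for that task.

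Stretches around the core of the metal response element are shown for Mt1 and Slc30a1, known targets of Mtf1, and for 3 of the 4 members that changed, to show what letters lie near their starts. The core was searched as TGCACNC and TGCGCNC on both strands of RefSeq windows (GRCm38.p6) running from 250 bases before to 50 bases after an annotated start. Each stretch has 29 bases, reads 5′ to 3′ on the strand that holds the core, and has the core in capitals.
Mt1: cggtcccgctgTGCACACtggcgctccag
Slc30a1: aaactttgcttTGCACTCggaacccccgt
Slc39a8: agatcaggcccTGCACCCtttagagataa
Slc39a11: cgtgggttcgcTGCGCTCtccttcccttt
Tfrc: cacgcactggcTGCGCGCgcagttcgcct

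The Mt1 stretch lies at chr8:94179055-94179083 on the plus strand, the Slc30a1 stretch at chr1:191906727-191906755 on the minus strand, and the Slc39a8 stretch, from the second of 2 windows of that gene, at chr3:135825627-135825655 on the minus strand. That of Slc39a11 lies at chr11:113650090-113650118 on the plus strand and that of Tfrc at chr16:32608832-32608860 on the plus strand, where a core on the other strand overlaps it. The window of Mt1 held 3 cores, as did those of Slc30a4 and Slc30a10, and 1.97% of all windows held 3 or more. That of Slc30a1 held 2, as did those of Slc30a2 and Atp7a and 1 of Tfrc, and 7.11% of all windows held 2 or more. Of the 40 members, 32 had at least 1 window, and 18 of their 43 windows held a core (41.9%), against 25.7% of 32851 windows of all genes. Windows of 1 gene can overlap, and a match describes letters, not a site that is bound. No window of Hmox1 was used here.

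Of the 40 metal handling genes, 4 changed between the layers. The zinc importer Slc39a8, the transferrin receptor Tfrc and the heme-degrading enzyme Hmox1 were higher in basal cells, and the zinc transporter Slc39a11 was higher in luminal cells. A change was called at a difference of 2-fold or more with an adjusted p (Benjamini-Hochberg, limma) below 0.05, in a fit of the 4 adult arrays over all 17096 genes. By that rule 6.81% of all genes changed, 3.57% higher in luminal and 3.24% higher in basal cells, so the 4 of 40 members (10%), 1 luminal and 3 basal, lay near the share of genes in general. The median difference, luminal minus basal, was 0.01 over the members, with 20 above and 20 below 0, and 0.02 over all genes. By adjusted p alone 8 members passed, against 16.8% of all genes. An unadjusted p under 0.05 was found for 16 of the 40 members and for 31.6% of all genes, the share against which the unadjusted counts below are read. In 7 members the layers were fully separated, array by array, and differed at least 1.5-fold, against 19.6% of all genes. In the bulk RNA of sorted cells, fewer cells that express a gene and less RNA per cell cannot be told apart.

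**Figure D1:**
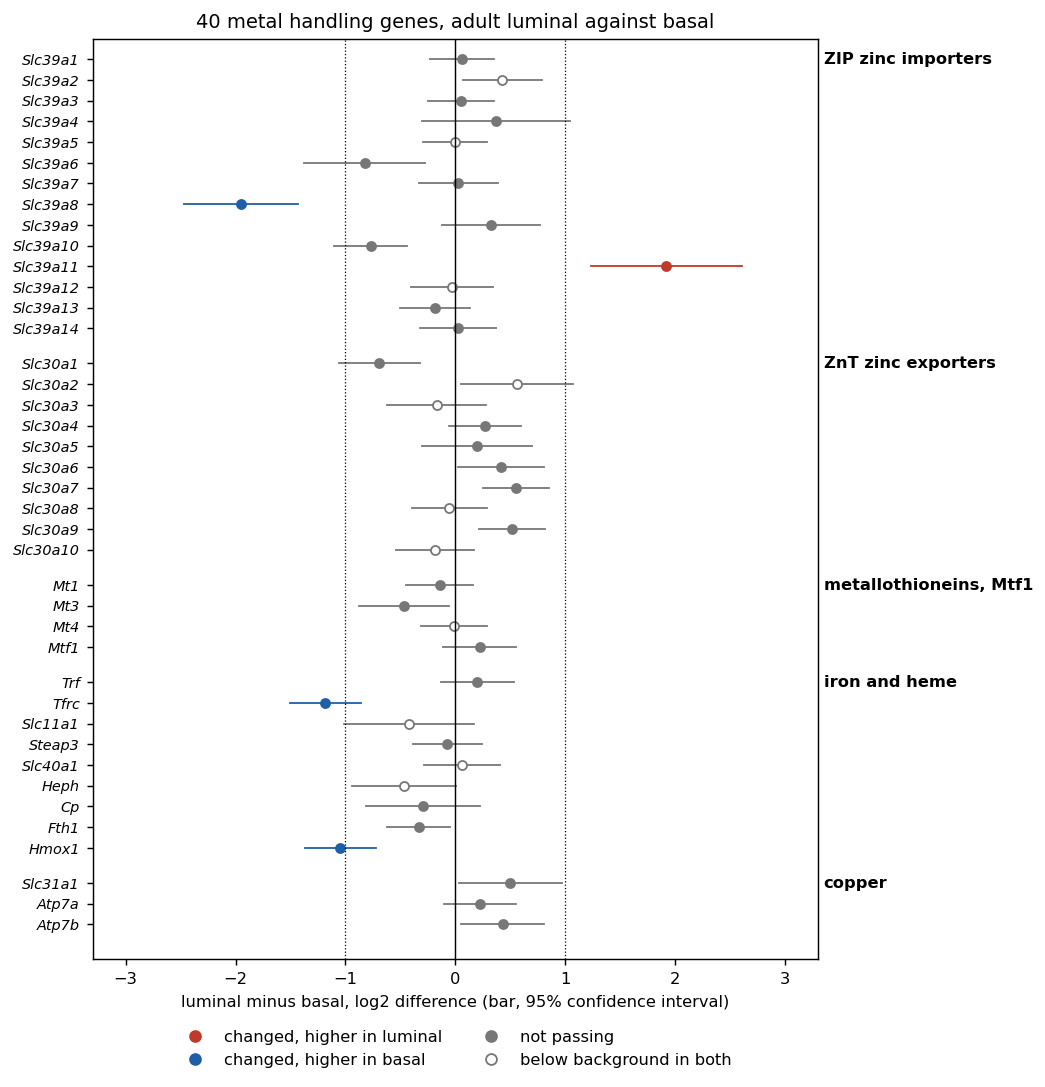
Log2 difference, luminal minus basal, of the 40 members by role, with 95% confidence intervals from limma (2 and 2 arrays); dotted lines mark a 2-fold difference and open points are genes below the background level in both layers. Slc39a8 (-1.95), Tfrc (-1.18) and Hmox1 (-1.05) lie on the basal side and Slc39a11 (1.92) on the luminal side, with the other members closer to 0.

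Among the 14 ZIP importers, Slc39a8 was higher in basal and Slc39a11 higher in luminal cells. Slc39a8 encodes ZIP8, a plasma membrane importer of zinc, manganese and other divalent metals. Its log2 intensity was 5.56 and 5.76 in the luminal arrays and 7.33 and 7.89 in the basal arrays, a 3.87-fold difference (-1.95 ± 0.21, SE, n = 2 and 2 arrays, limma adjusted p = 0.00566). Both basal arrays lay well above both luminal ones, which sat at the background level of 5.59 (the 95th percentile of probe sets of receptor families and genes restricted to other organs), so the size of the difference is not exact. Slc39a8 passed in each of the 14 alternative fits, with adjusted p from 0.00149 to 0.0487. Without luminal replicate 2 the difference was -2.05 (limma adjusted p = 0.0349). Its other probe set, below background in both layers, differed by -0.78.

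Slc39a11 encodes ZIP11, an outlier among ZIP proteins by sequence that has been placed in the Golgi and nucleus. Its log2 intensity was 7.17 and 7.08 in luminal cells and 4.78 and 5.63 in basal cells, 1.92 ± 0.28 higher in luminal cells (SE over 2 and 2 arrays, limma adjusted p = 0.0119). The luminal arrays agreed closely, while the basal arrays differed from each other by more than 0.8 and had a mean below background, so this size is not exact either. Without luminal replicate 1 the difference was 1.87 and without luminal replicate 2 it was 1.97, and the call was lost in both fits. The residual spread of those fits came from the basal pair. Leaving out a basal array moved the size more, to 1.49 without basal replicate 1 and 2.35 without basal replicate 2. With the embryonic arrays in the fit the limma adjusted p was 0.0701, and over all alternatives it ran from 0.00178 to 0.0807.

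A pair of related importers, Slc39a6 (ZIP6) and Slc39a10 (ZIP10), which form a complex at the cell surface, had lower values in luminal cells and did not reach 2-fold on the 4 arrays. Slc39a6, known as an estrogen-responsive gene in breast cells, measured 7.91 and 7.28 in luminal and 8.35 and 8.50 in basal arrays (-0.83 ± 0.22, SE, n = 2 and 2 arrays, limma adjusted p = 0.0586). Slc39a10 measured 7.27 and 7.28 in luminal and 7.93 and 8.16 in basal arrays (-0.77 ± 0.14, SE, n = 2 and 2 arrays, limma adjusted p = 0.0189). Without luminal replicate 1 the difference of Slc39a6 was -1.14 and without luminal replicate 2 it was -0.51, neither passing. Neither gene's layers overlapped, and the second probe sets of Slc39a6 (-0.76) and Slc39a10 (-0.74) lay on the same side. Slc39a10 passed where the fold minimum was lowered to 1.5-fold or dropped. Without luminal replicate 1 its difference was -0.76 and without luminal replicate 2 it was -0.78. In neither of these fits was its limma adjusted p under 0.05.

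The other 10 ZIP genes had differences between -0.19 and 0.43. Among them were Slc39a1, the broadly expressed ZIP1 (0.06, 95% interval -0.23 to 0.36), Slc39a14, an importer of zinc, iron and manganese (0.02, -0.32 to 0.37), and Slc39a7, which releases zinc from the endoplasmic reticulum and Golgi (0.03, -0.33 to 0.39). These intervals do not reach a 2-fold difference in either direction. All 3 probe sets of Slc39a14 had differences between 0.01 and 0.11. Slc39a2, Slc39a5 and Slc39a12 lay below the background level in both layers, and their small differences do not show equal expression.

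**Figure D2:**
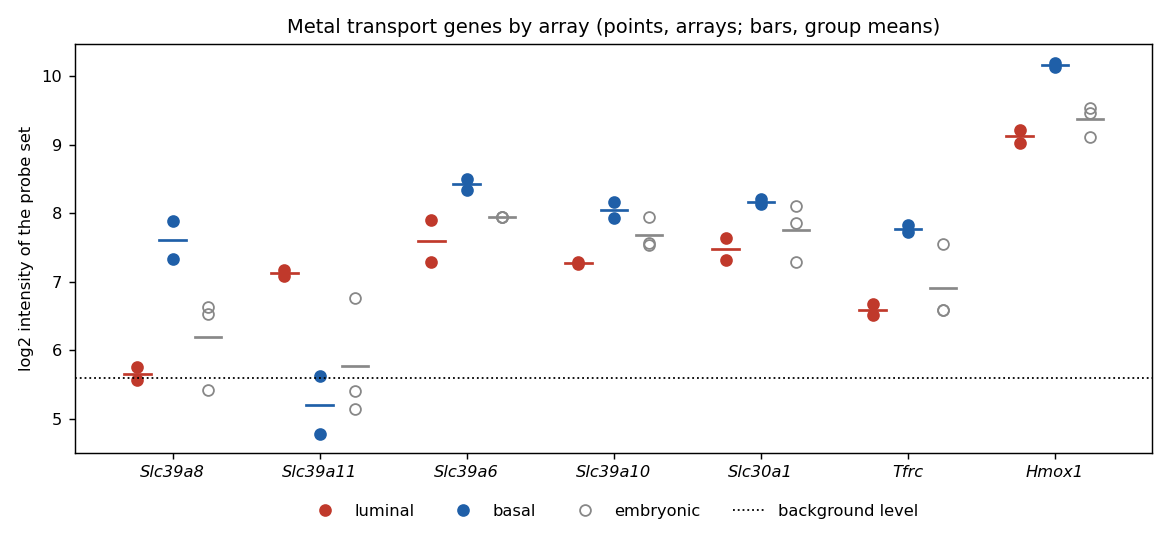
Log2 intensity per array of the 7 members whose adult arrays did not overlap at 1.5-fold or more; points are arrays (2 luminal, 2 basal, 3 embryonic), short bars are group means and the dotted line is the background level. Slc39a8 stood at 5.56 and 5.76 in luminal and at 7.33 and 7.89 in basal arrays. The 3 embryonic points all lie between the adult layers for Slc39a6, at 7.95, while those of the other genes spread into or past the range of a layer.

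None of the 10 ZnT exporters changed by the limma rule, and 5 had an unadjusted p under 0.05 (31.6% of all genes did). Slc30a1 (ZnT1), the exporter of the plasma membrane, measured 7.64 and 7.32 in luminal and 8.20 and 8.14 in basal arrays (-0.69 ± 0.15, SE, n = 2 and 2 arrays, limma adjusted p = 0.0329), a difference below 2-fold. The layers did not overlap, and its other probe set gave -0.54. Without luminal replicate 2 the difference of Slc30a1 was -0.53. Its limma adjusted p was 0.137 with the embryonic arrays in the fit and 0.0565 with the mean of its probe sets. On the opposite side, Slc30a7 (ZnT7), which loads zinc into the Golgi, measured 7.57 and 7.59 in luminal and 6.97 and 7.08 in basal arrays (0.55 ± 0.12, SE, limma adjusted p = 0.0337). Its other probe set gave 0.58. Slc30a9, named after its values were seen, had a difference of 0.52 ± 0.12 (SE, limma adjusted p = 0.0399). These 3 were the exporters with an adjusted p under 0.05, all under 2-fold.

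Of the remaining exporters, Slc30a6 (0.42) and Slc30a4 (0.27), a vesicular exporter needed for zinc in mouse milk, did not pass. Slc30a2 (ZnT2), which loads zinc into the secretory vesicles of lactating cells, measured 5.03 and 4.49 in luminal and 4.30 and 4.10 in basal arrays, all below background. Its values too were chosen for display after they were seen. Slc30a3, Slc30a8 and Slc30a10 also lay below background in both layers.

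None of the 4 genes of metallothioneins and their regulator passed in limma, and 1 had an unadjusted p under 0.05. Mt1, the inducible metallothionein, measured 11.08 and 11.19 in luminal and 11.32 and 11.23 in basal arrays (-0.14, 95% interval -0.45 to 0.16, limma adjusted p = 0.514). That probe set has the suffix used for probes shared by several transcripts, so related metallothioneins may add to it. The gene's other probe set measured 5.79 and 6.19 in luminal and 6.56 and 6.86 in basal arrays, a difference of -0.72, so the 2 disagreed in size. The sensor gene Mtf1 had a difference of 0.22 and Mt3, best known from the brain, one of -0.47, and neither passed. Mt4, of stratified epithelia, lay below background.

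Of the 9 iron genes 2 changed, against 6.81% of all genes (3.24% higher in basal cells). They were a receptor for iron uptake and an enzyme of heme breakdown, both higher in basal cells. Tfrc, which takes up iron-loaded transferrin and whose mRNA is stabilised when cells are short of iron, measured 6.68 and 6.51 in luminal and 7.83 and 7.72 in basal arrays. The difference was -1.18 ± 0.13 (SE, n = 2 and 2 arrays, limma adjusted p = 0.00602), a 2.27-fold higher level in basal cells with no overlap. Its other probe sets gave -1.41 and -1.24, and without luminal replicate 2 the difference was -1.10 (limma adjusted p = 0.0449). With the embryonic arrays in the fit its limma adjusted p was 0.0650, the highest of its alternatives, which began at 0.00306.

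Hmox1, the inducible enzyme that opens heme to biliverdin, carbon monoxide and iron, measured 9.02 and 9.22 in luminal and 10.14 and 10.20 in basal arrays. It was 2.07-fold higher in basal cells (-1.05 ± 0.13, SE, n = 2 and 2 arrays, limma adjusted p = 0.00837), near the 2-fold limit of the rule. Without luminal replicate 1 the difference was -0.95 (limma adjusted p = 0.0650) and without luminal replicate 2 it was -1.15 (limma adjusted p = 0.0400), and over all alternatives the adjusted p ran from 0.00288 to 0.0650.

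The other 7 iron genes had differences between -0.47 and 0.20. Fth1, the ferritin heavy chain, measured 11.08 and 11.10 in luminal and 11.43 and 11.42 in basal arrays (-0.33, 95% interval -0.62 to -0.05, limma adjusted p = 0.111). The arrays did not overlap, but the difference did not pass. Trf, the transferrin gene, which the mammary epithelium itself expresses for milk, had a difference of 0.20 and Cp, the copper-carrying ferroxidase ceruloplasmin, one of -0.30. The endosomal ferrireductase gene Steap3, named after its values were seen, had one of -0.07. The macrophage transporter gene Slc11a1, the ferroportin gene Slc40a1 and the ferroxidase gene Heph lay below background in both layers, so the export arm could not be compared.

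The 3 copper genes all had higher means in luminal cells and none passed in limma, with an unadjusted p under 0.05 for 2 (31.6% of all genes). Slc31a1, the copper importer CTR1, measured 6.97 and 6.51 in luminal and 6.13 and 6.35 in basal arrays (0.50, 95% interval 0.03 to 0.97, limma adjusted p = 0.136). The copper pump genes Atp7a (0.22) and Atp7b (0.43) did not pass either, and Atp7b was below background in basal cells. Over the alternative scalings (quantile normalization and median centring) the same 4 members were called.

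Other genes of metal handling were taken from 6 lists of 76 measured genes, of which 11 changed (14.5%, against 6.81% of all genes), 8 on the luminal side (3.57% of all genes) and 3 on the basal side (3.24%). Of the 76 genes, 57 lay above background in at least 1 layer. Among all genes above background in at least 1 layer, 1106 of 9385 changed, a larger share than 6.81%. The iron transport and storage list had 4 of 16 members higher in luminal cells and none higher in basal cells. They were Slc25a37, the mitochondrial iron importer mitoferrin 1 (1.29), Steap1, a relative of Steap3 (1.51), Scara5, a receptor of ferritin (1.20), and Ltf, the iron-binding milk protein lactoferrin (1.09). Steap1 and Scara5 lay below background in basal cells, and Ltf was named after its values were seen. Slc25a37 measured 9.61 and 9.67 in luminal and 8.22 and 8.47 in basal arrays. Ftl1, the ferritin light chain, had a difference of -0.45 and Ftmt, below background, one of -0.04, and neither passed. In this list 8 of 16 genes had an unadjusted limma p under 0.05, 6 higher in luminal and 2 in basal cells (31.6% of all genes).

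Of 11 iron-sulfur cluster assembly genes 2 rose on the luminal side, and the list's median was 0.70 against 0.02 for all genes and 0.14 for genes above background, as 10 of the 11 were. Nfu1, a carrier of finished clusters, measured 8.49 and 8.58 in luminal and 7.21 and 7.45 in basal arrays (1.21 ± 0.14, SE, n = 2 and 2 arrays, limma adjusted p = 0.00662). Nfs1, the enzyme that supplies the sulfur, had a difference of 1.09 ± 0.19 (SE, limma adjusted p = 0.0196). Iscu, the scaffold protein (0.12), and Lyrm4 (0.74) did not pass, the latter under 2-fold. In limma 6 of the 11 had an unadjusted p under 0.05, all higher in luminal cells, against 31.6% of all genes.

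In the heme list of 18 genes, Hp, the haemoglobin-binding plasma protein haptoglobin, was higher in luminal cells (1.76) and Lrp1, an endocytic receptor that takes up hemopexin among many ligands, higher in basal cells (-2.36). Alas1 (-0.06) and Cpox (-0.22), enzymes of heme synthesis, did not pass. In limma 6 of the 18 had an unadjusted p under 0.05, 5 higher in luminal and 1 in basal cells (31.6% of all genes). The copper list of 15 genes had the mitochondrial copper chaperone Cox17 higher in luminal cells (1.09) and Lox, the copper-dependent enzyme that crosslinks collagen, higher in basal cells (-1.16). Slc31a2 (0.53) and the copper chaperone gene Atox1 (0.68) did not pass, being under 2-fold. An unadjusted limma p under 0.05 was found for 10 of these 15, 6 higher in luminal and 4 in basal cells. Of 11 iron regulation genes Epas1, the hypoxia factor HIF-2 alpha, was the 1 that changed, with 6.59 and 6.62 in luminal and 8.18 and 8.34 in basal arrays (-1.66). Tfr2 (0.06) and Hfe (0.35) lay below background. None of 5 manganese and Golgi pump genes passed in limma (1 at an unadjusted p under 0.05), with Atp2c1 at 0.62 and Tmem165 at 0.02. The count of changed genes in these lists was 5 without luminal replicate 1, 7 without luminal replicate 2, and 6 with the mean of all probe sets of a gene.

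**Figure D3:**
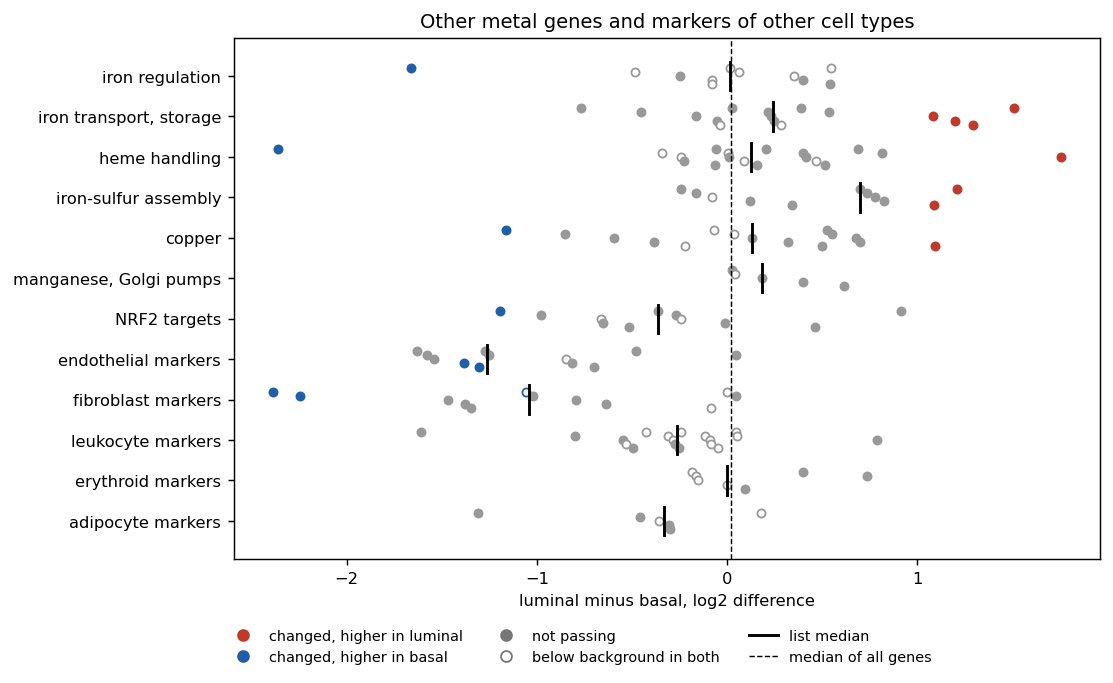
Log2 difference, luminal minus basal, of single genes in 6 lists of other metal genes, NRF2 targets and markers of other cell types. The NRF2 row also holds Nfe2l2 and Bach1. Bars are list medians, the dashed line is the median of all genes and open points are genes below background in both layers. Endothelial and fibroblast markers have medians of -1.26 and -1.04, and iron-sulfur assembly genes one of 0.70.

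Most markers of endothelial cells and fibroblasts also had higher means in basal cells, 11 of 12 in each list. Of 12 endothelial markers 2 changed, Flt1 (-1.39) and Esam (-1.30), both higher in basal cells. Pecam1 (-1.63) and Cdh5 (-1.58) did not pass. In limma 10 of the 12 had an unadjusted p under 0.05, all higher in basal cells, against 31.6% of all genes. The list's median log2 intensity was 5.26 and 5.93 in luminal and 6.38 and 7.03 in basal arrays, and its summed intensity was 4386.5 to 5112 in luminal and 5397 to 5547 in basal arrays. Most of that sum was Ramp2 (0.05). Set apart after the values were seen, it left a sum of the other 11 genes of 439 to 771 in luminal and 1114 to 1795 in basal arrays. The 12 fibroblast markers included 3 that changed, all higher in basal cells. They were Postn (-2.39), Fbln1 (-2.25) and Mfap5 (-1.06), the last below background, while Col1a1 (-1.38) and Col1a2 (0.00) did not pass. Of the 12, 7 had an unadjusted limma p under 0.05, all higher in basal cells. The summed fibroblast intensity was 2915 to 4816 in luminal and 7454 to 9216 in basal arrays. The part of these cells in the levels of Slc39a8, Tfrc, Hmox1, Epas1 and Lrp1 was not tested.

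None of 18 leukocyte markers changed in limma (median -0.26, 4 at an unadjusted p under 0.05), and Ptprc, the pan-leukocyte marker, lay below background on every adult array, with Cd68 at -0.49. Of the 18 markers 15 had lower means in luminal cells, among them Lyz2 (-1.61) and Cd74 (-0.80), both named after their values were seen, and 5 lay above background on all 4 arrays. The part of leukocytes in the level of Hmox1 was not tested. Their summed intensity was 826 to 994 in luminal and 1005 to 1216 in basal arrays. Among 7 erythroid markers none changed in limma (1 at an unadjusted p under 0.05), with Hba-a1 at 12.09 and 11.77 in luminal and 11.25 and 11.81 in basal arrays and Hba-a2 at 0.09. The summed erythroid intensity was 5909 to 6842 in luminal and 4599 to 5996 in basal arrays, mostly from the globin probe sets, and the arrays of the layers overlapped. None of 6 adipocyte markers changed in limma (2 at an unadjusted p under 0.05), with Adipoq below background and Fabp4 at -1.31, and their summed intensity was 240 to 361 in luminal and 422 to 568 in basal arrays.

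In the embryonic columns the members lay near the mean of the adult arrays: the median absolute distance of the embryonic from the adult mean was 0.02 on the log2 scale and the largest 0.44. The embryonic mean fell between the luminal and basal means for 33 of the 40 members. Slc39a8 read 6.63, 6.53 and 5.42, Slc39a11 5.15, 5.40 and 6.77, Tfrc 6.59, 6.59 and 7.56, and Hmox1 9.46, 9.54 and 9.11. For all 4 replicate 3, of 813 cells, stood apart from the other two. Slc39a6 read 7.95 on all 3 arrays. The sources used here do not say how the embryonic columns were scaled against the adult ones, so these positions describe the table, and no embryonic level was tested against an adult one.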

How the data were processed

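Per the labels' protocols, bead-purified RNA was reverse transcribed, amplified as cDNA and put on Affymetrix arrays; the text describes the embryonic preparation. The authors deposited linear probe set intensities for 7 arrays. The submitters' processing notes name RMA and affy, and give no version or setting. Of 45141 rows, 4 had no values and 104 were control probe sets. The remaining 45033 included 28895 with 1 gene symbol, 551 with several and 15587 without a listed gene.

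Values were converted to log2 before fitting, since the design had allowed for a table already on that scale. Limma 3.58.1 in R 4.3.3 fitted luminal minus basal on the 4 adult arrays (2 residual degrees of freedom, a prior of 3.73), with eBayes and Benjamini-Hochberg adjustment over 17096 genes. An earlier fit of these data pooled all 7 arrays. The embryonic arrays were left out here because of exact ties among them, which had been thought to lower a pooled spread. With them in the fit the adjusted p of all 4 called members was higher. That of Slc39a6, with equal values on all 3 embryonic arrays, was lower (0.0448 against 0.0586, limma), with the difference still under 2-fold. By that 7-array fit 939 genes changed, by the present one 1165, of which 935 were shared. The background level of 5.59 (intensity 48.3) came from 176 probe sets of 149 genes. Median log2 intensity ran from 5.05 to 5.08 over the arrays, and 8648 to 8904 genes an array lay above background; the number of arrays limits precision.

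The members and lists were chosen with earlier results of these data known. The rule gave values per array to members that changed or whose layers did not overlap at 1.5-fold or more. Those of Slc30a7, Slc30a2, Mt1, Fth1 and Slc31a1 are printed beyond it. It named from other members up to 3 a role by level, and from each list up to 3 changed genes per direction by adjusted p and the first 2 that did not pass. Alternatives covered the arrays fitted, probe sets, dim genes, scaling, the variance prior, the fold minimum, a replicate block and each adult replicate left out. Figures used matplotlib 3.10.9 in Python 3.11.15.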

Additional observations from a re-analysis of the deposited data

How the results depend on the processing

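Against 1165 changed genes, 1 member higher in luminal, 3 higher in basal cells and 11 changed genes of the other metal lists, the alternatives gave the following. With no fold minimum 2879 genes changed, with 3 luminal and 5 basal members and 24 listed genes; at 1.5-fold these were 2603 genes, 5 basal members and 21 listed genes, by construction of the rule. All 7 arrays in the fit left 0 luminal members, and the mean of all probe sets left 6 listed genes; the cause was not tested. Leaving out 1 adult replicate gave 519 to 1443 genes, 0 to 1 luminal and 2 to 3 basal members and 5 to 10 listed genes, with the lowest count of genes without luminal replicate 1; those fits had 1 residual degree of freedom, and the lone array of a layer was assumed to vary like the other layer. Arrays of the same number in the 2 layers shared little (correlation of deviations over genes 0.08), so the number is not read as a pairing; with the replicate block 1208 genes, 1 luminal and 3 basal members and 10 listed genes changed, and no member's call changed. The 14 alternatives were run on Slc39a6, Slc39a8, Slc39a10, Slc39a11, Slc30a1, Tfrc and Hmox1, and none of these 7 was reversed; other members were not run singly. The median difference of all genes was 0.01 to 0.04 under the other scalings. In both layers 11 of 40 members lay below background, and none of these passed, which does not show equal expression. Few calls came from such dim genes: of 1165 changed genes 1106 lay above background in at least 1 layer.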

Other observations

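Hmox1 is also a target of the oxidative stress factor NRF2, and other genes of that response were read beside it. The part of NRF2 in the level of Hmox1 was not tested. Of 11 measured genes of the response, counting Nfe2l2 and the repressor gene Bach1, 1 changed, against 6.81% of all genes. It was Osgin1, a stress-induced growth inhibitor, with 6.54 and 6.48 in luminal and 7.78 and 7.63 in basal arrays (-1.19 ± 0.13, SE, n = 2 and 2 arrays, limma adjusted p = 0.00548). The list's median was -0.36, with 9 of 11 genes below 0, Nfe2l2 and Bach1 among them. The median was 0.02 for all genes and 0.14 for genes above background, as 9 of the 11 were. An unadjusted p under 0.05 was found for 5 genes lower and 2 higher in luminal cells, against 31.6% of all genes. Nfe2l2, which encodes NRF2, measured 6.71 and 6.50 in luminal and 7.76 and 7.40 in basal arrays (-0.98, limma adjusted p = 0.0187), just under 2-fold. Bach1, the heme-sensing repressor of Hmox1, had a difference of -0.27 and did not pass. Gsr, the glutathione reductase gene, named after its values were seen, lay on the other side at 8.33 and 8.46 in luminal and 7.51 and 7.45 in basal arrays (0.92, limma adjusted p = 0.00988), also under 2-fold.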
